A study of Danio rerio with 13 samples.

Results

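The cytochrome P450 genes of zebrafish larvae were followed across an aldh3b1 knockout and a 2-HD treatment. Members were the rows of the count table whose symbol starts with cyp and a digit, without the cyp11, cyp26 and cyp51 genes, and with a count in at least 3 libraries. This gave 79 of the 32417 rows, carrying 75 distinct symbols, and 72 of them had enough counts to be tested. The symbols cyp2k6, cyp3c3, cyp2x10.2 and cyp2y3 each stand on more than 1 row, and each later row is named here as the second row of its symbol. All groups carry the transgene Tg(fli1:EGFP), which makes EGFP in endothelial cells under the fli1 promoter. The groups were larvae homozygous for the aldh3b1 knockout made with CRISPR (KO, 3 libraries), wild-type larvae given 2-HD (2-HD, 5 libraries) and untreated wild-type larvae (WT, 5 libraries). The labels give no larval age, dose, duration or clutch, do not spell out 2-HD, and do not say from how many founders the knockout came. No group treated with vehicle alone is named, so effects of a vehicle and of 2-HD cannot be told apart.

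Cytochrome P450 enzymes carry a haem group and insert an oxygen atom into their substrates, using electrons passed to them by reductases. Enzymes of the CYP1, CYP2 and CYP3 families oxidise foreign compounds and many lipids, and in vertebrates most are strongest in liver, intestine and kidney. Other families make or break down defined hormones and lipids, among them bile acids, oxysterols, vitamin D and sex steroids. In fish the CYP2 family in particular has expanded into clusters of neighbouring genes that have no direct counterpart in mammals.

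Library totals were 19066393 to 19332225 counts in KO, 19339056 to 19482661 in 2-HD and 17975289 to 19009200 in WT. Levels are given as CPM, read counts divided by the TMM-scaled library size. Where a row is at 0, up to 3 counts remain possible, or 0.148 to 0.173 CPM. This limit covers counting error only. Values per library are listed for KO 2, 3 and 7, then 2-HD 1 to 5, then WT 3, 5, 10, 13 and 14. On the first principal component, which held 37.7% of the variance, WT lay at 16.17 to 51.96 and KO at -9.859 to 9.312. There 2-HD 1 lay at -8.034, within the KO range, and the other 2-HD libraries at -49.56 to -38.83. On the second principal component, which held 15.5% of the variance, WT 14 and 2-HD 1 stood apart from the other libraries. The targeted gene, aldh3b1, had 5.58, 5.48 and 4.48 CPM in KO larvae, 13.2, 8.13, 9.71, 8.79 and 10.9 CPM in 2-HD larvae, and 4.62, 5.22, 6.03, 7.19 and 7.45 CPM in WT larvae. It was not called lower in KO against WT (log2 fold change -0.23, adjusted p = 0.474), so its RNA does not check the genotype labels, and it rose in 2-HD (log2 fold change 0.73, adjusted p = 0.00179). In these whole larvae, fewer cells of a type and less RNA per cell cannot be told apart. Of 12 hepatocyte markers, 1 rose in KO (apoba; 8 were higher at an unadjusted p under 0.05 and 4 by DESeq2) and 10 rose in 2-HD, with summed levels of 4044 to 4972 CPM in KO, 5560 to 6467 CPM in 2-HD and 2830 to 4334 CPM in WT. The median log2 fold change of these markers was 0.42 in KO and 0.65 in 2-HD. Of 10 enterocyte markers, 0 were called in KO by edgeR (4 at an unadjusted p under 0.05, 3 by DESeq2) and 5 rose in 2-HD, with sums of 3380 to 4527 CPM in KO, 3883 to 4561 CPM in 2-HD and 2855 to 4006 CPM in WT. Of 5 erythroid markers 0 were called in KO by edgeR (1 at an unadjusted p under 0.05, 0 by DESeq2) and 4 rose in 2-HD. Their sums were 257.3 to 314.2 CPM in KO, 401 to 577.9 CPM in 2-HD and 227.2 to 342.8 CPM in WT. Of 6 epidermis markers 3 rose in KO and 3 in 2-HD. Their sums, 15310 to 20770 CPM in KO, 13460 to 17760 CPM in 2-HD and 15040 to 17160 CPM in WT, overlapped between the groups. These marker counts are to be read beside all rows, of which 4.1% rose and 1.86% fell in KO. In 2-HD 22.7% of all rows rose and 19.7% fell. No marker of these lists was at 0 in any library, and the part of these shifts in the results below was not tested.

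More cytochrome P450 genes were higher than lower against WT in both comparisons. In KO larvae, 12 of 72 members rose and 0 fell at an adjusted p under 0.05 (edgeR's quasi-likelihood test, Benjamini-Hochberg adjustment over all 22158 rows tested). The 12 that rose are 16.7% of the members, where 4.1% of all rows rose and 1.86% fell, and 5.97% were called in all. At an unadjusted p under 0.05, 35 members were higher and 1 was lower. Many rows pass that limit: the second row of cyp3c3, at 0.0497 in edgeR's test, ranked 5466 of 22158 rows. DESeq2 called 22 members higher and 1 lower (cyp2p10), where it called 6.52% of all rows higher and 5.09% lower. The KO counts by family, run and list are to be read beside these shares. The median log2 fold change was 0.44 over the members and 0.00142 over all rows. In 23 members every KO library lay above every WT library, 31.9% of members against 7.45% of all rows, and in 1 (cyp2p10) every one lay below, against 8.01% of all rows. Rises over 2-fold were called in 4 members, where 0.939% of all rows rose as far, and falls over 2-fold in 0, where 0.0857% of all rows fell as far. These calls rest on few libraries: 0 members were called without KO 3 or without KO 7, when the whole table held 3 and 4 calls, and 19 were called without KO 2 and 18 without 2-HD 1 (1 of them lower) or WT 5. Of all rows, 7.37%, 8.11% and 6.3% were called without KO 2, 2-HD 1 and WT 5. Leaving out WT 10, WT 13 or WT 14 left 3, 4 and 8 members called, when 1.39%, 1.8% and 4.01% of all rows were.

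In 2-HD larvae, 30 of 72 members rose and 3 fell. The shares were 41.7% and 4.17%, where 22.7% of all rows rose and 19.7% fell, so the share called (45.8%) lay near the 42.4% of the whole table while the balance of directions did not. The 2-HD counts by family, run and list are to be read beside the same shares of all rows. The median log2 fold change was 0.39 over the members and 0.0225 over all rows. In 23 members every 2-HD library lay above every WT library, 31.9% against 13.5% of all rows, and in 1 (cyp27a1.4) every one lay below, against 12.2% of all rows. Rises over 2-fold were called in 6 members (8.33%, against 4.26% of all rows) and a fall over 2-fold in 1 (1.39%, against 1.32% of all rows). Of the 33 calls, 27 were made in each of the 13 fits that left out 1 library. The other calls (cyp1c2, cyp20a1, cyp2k8, cyp2k18, cyp3c4 and cyp46a1.4) were lost in 2 to 8 of those fits. Members called lower numbered 5 without 2-HD 1 and 2 without 2-HD 2, WT 5 or WT 10.

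Because both comparisons share the WT libraries, their calls are not independent. Side by side, 9 members rose against WT in both: cyp2aa1, cyp2aa6, cyp2ad6, cyp2k16, cyp2k19, cyp2v1, cyp3c3, cyp7b1 and cyp46a1.3. A further 3 were called in KO and not in 2-HD (cyp2aa8, cyp2aa9 and cyp2p9), 21 rose in 2-HD and were not called in KO, and 36 were called in no comparison. Of all rows, 4.1% rose in KO and 22.7% in 2-HD. The share of all rows that rose in both was not counted. These numbers therefore do not show whether the members share calls more often than other rows. The test that sets KO directly against 2-HD called 1 member, described at the end.

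**Figure D1:**
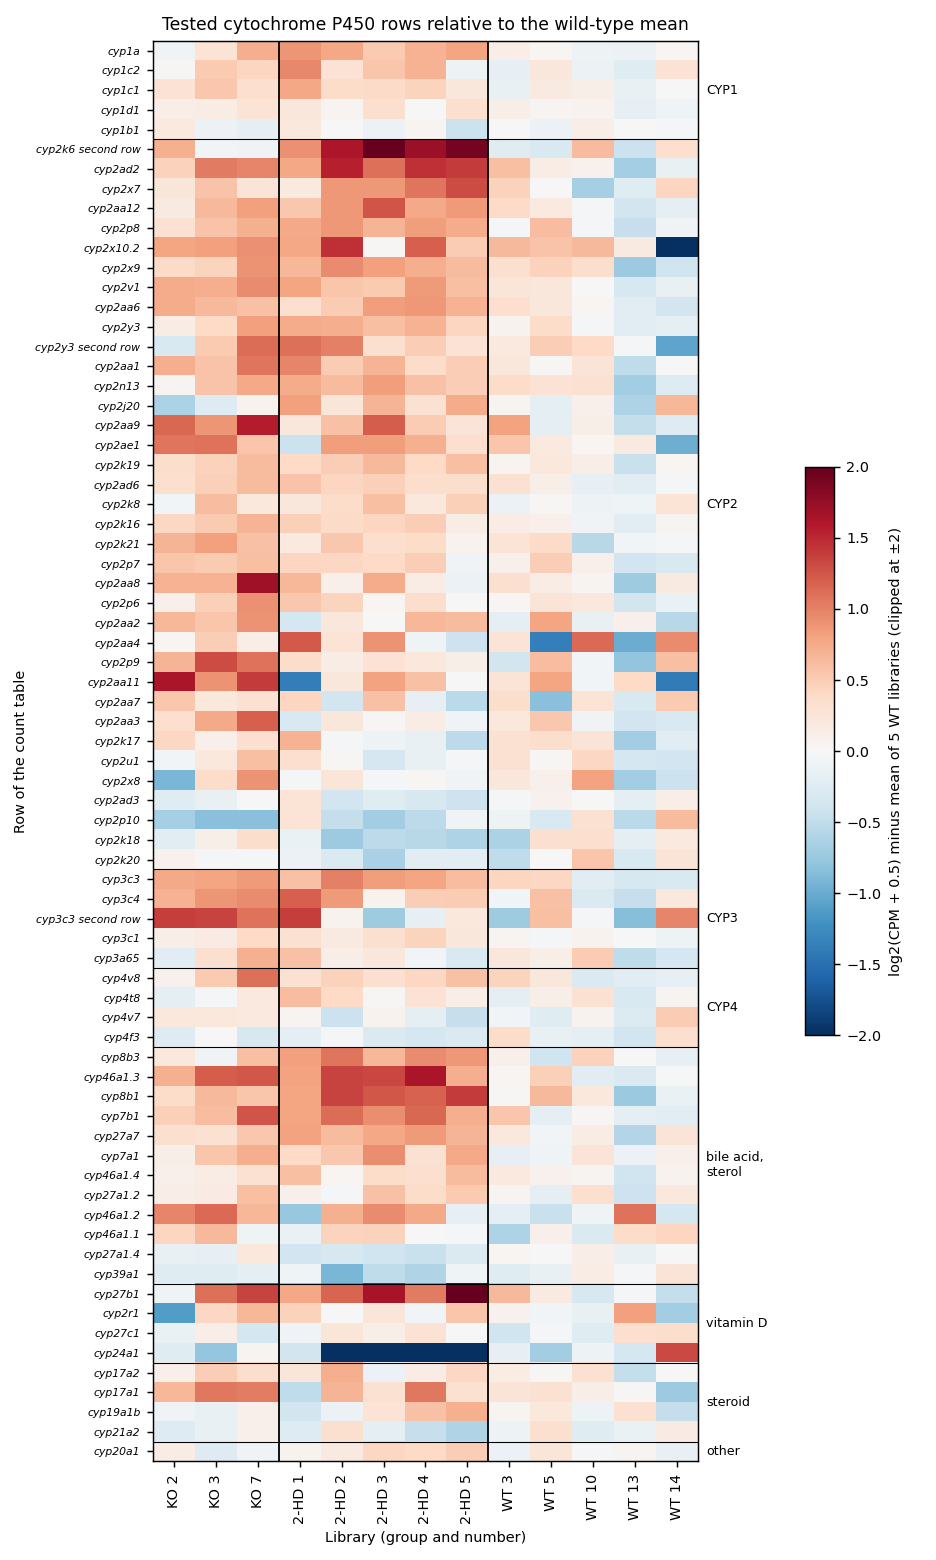
Levels of the 72 tested members in each library, as log2(CPM + 0.5) minus the mean of the 5 WT libraries, with rows grouped by family and libraries in columns. Red is above and blue below the WT mean, clipped at ±2. The KO and 2-HD columns hold more red than blue in the CYP2, CYP3 and bile acid rows, and cyp24a1 is blue in 2-HD 2 to 2-HD 5.

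Summed over all 79 members, the level averaged 1819 ± 354 CPM in KO, 1818 ± 134 CPM in 2-HD and 1406 ± 219 CPM in WT (SD, n = 3, 5 and 5). The ranges overlapped between KO (1474 to 2181.8 CPM) and WT (1081 to 1596 CPM), and did not between 2-HD (1649 to 2003 CPM) and WT. A single row, cyp3a65, held a large part of these sums. Without it the sums were 1119 to 1507 CPM in KO, 1319 to 1399 CPM in 2-HD and 794.0 to 1095 CPM in WT, and neither KO nor 2-HD overlapped WT. For KO the gap was narrow, with KO 2 at 1119 CPM just above WT 5 at 1095 CPM. The members together took 0.151% to 0.217% of the counts of a library in KO, 0.172% to 0.201% in 2-HD and 0.103% to 0.151% in WT.

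**Figure D2:**
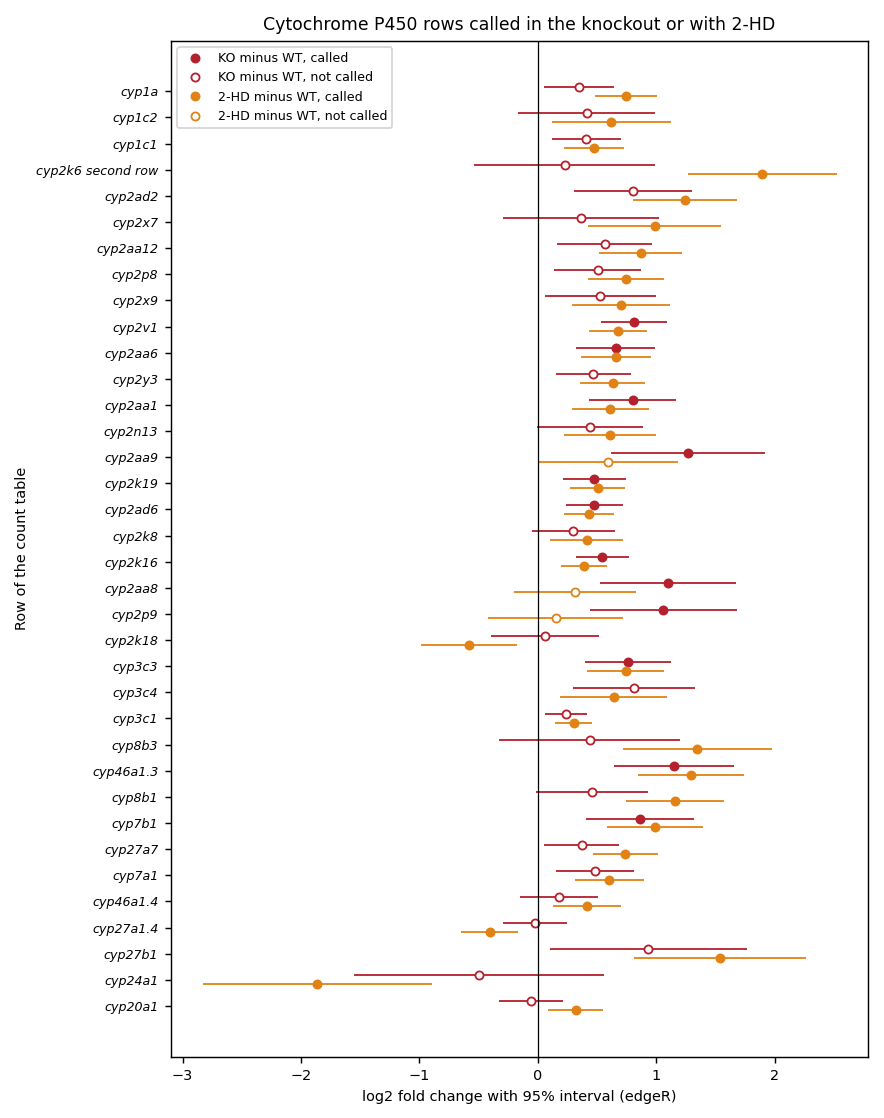
Log2 fold changes against WT of the members called in KO or in 2-HD, side by side, with 95% intervals from the edgeR fit. The 36 members called in no comparison are not drawn. Filled points passed an adjusted p of 0.05. Among these rows, picked by their calls, most points lie to the right of 0. The filled KO points are all to the right, and cyp24a1 lies furthest to the left, at -1.86 in 2-HD.

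The CYP1 genes, which oxidise planar aromatic compounds and include the best known targets of the aryl hydrocarbon receptor, rose in part in 2-HD: 3 of 5 members, against 0 of 5 called in KO (edgeR; 2 at an unadjusted p under 0.05, 0 by DESeq2). The receptor's most used readout, cyp1a, had 23.6, 30.02 and 41.2 CPM in KO larvae, 45.9, 42.6, 35.8, 40.6 and 43.1 CPM in 2-HD larvae, and 27.3, 25.5, 23.1, 22.8 and 25.5 CPM in WT larvae. Every 2-HD library lay above every WT library, while KO spread from a level within the WT range in KO 2 to one near 2-HD in KO 7. It rose in 2-HD (log2 fold change 0.74, SE 0.12, adjusted p = 0.000298) and was not called in KO (log2 fold change 0.35, SE 0.14, adjusted p = 0.138). Without KO 2 it was called in KO as well (adjusted p = 0.0243, over a range of 0.0243 to 0.675 in the fits that left out 1 library). The related cyp1c1 had 8.55, 10.3 and 8.91 CPM in KO larvae, 12.2, 9.06, 9.22, 9.64 and 8.17 CPM in 2-HD larvae, and 6.23, 7.94, 7.54, 6.24 and 6.87 CPM in WT larvae. Neither KO nor 2-HD overlapped WT, and cyp1c1 rose in 2-HD (log2 fold change 0.47, SE 0.12, adjusted p = 0.00515) but was not called in KO (log2 fold change 0.41, adjusted p = 0.0791). In 2-HD its neighbour cyp1c2 rose by 0.62 on the log2 scale (adjusted p = 0.0446), a call lost in 8 of the 13 fits that left out 1 library (without KO 3, KO 7, 2-HD 1, 2-HD 3, 2-HD 4, WT 3, WT 10 or WT 13). Another member, cyp1b1, whose human counterpart is mutated in congenital glaucoma, had 4.56, 3.59 and 3.39 CPM in KO larvae, 4.64, 3.94, 3.59, 4.07 and 2.77 CPM in 2-HD larvae, and 3.92, 3.59, 4.35, 3.96 and 3.81 CPM in WT larvae. The 3 groups overlapped and its log2 fold changes were -0.03 in KO and -0.047 in 2-HD, with 95% intervals of -0.38 to 0.32 and -0.35 to 0.26. The CYP1 row with the most counts, cyp1d1, averaged 41.2 CPM in KO, 41.4 CPM in 2-HD and 36.3 CPM in WT. It was called in neither KO (log2 fold change 0.18, adjusted p = 0.246) nor 2-HD (log2 fold change 0.19, adjusted p = 0.0758).

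Among the other genes listed for the aryl hydrocarbon receptor pathway, which include a clock relative (arntl1a), 1 of 14 rose in KO and 0 fell by edgeR. At an unadjusted p under 0.05, 2 were lower in KO, as were 2 by DESeq2. In 2-HD 3 rose and 5 fell, where 22.7% of all rows rose and 19.7% fell. The one that rose in KO was ahr2, the main receptor of dioxin toxicity in zebrafish (log2 fold change 0.39, SE 0.08, adjusted p = 0.0196), and it rose in 2-HD too (log2 fold change 0.39, SE 0.07, adjusted p = 0.000623). The others that rose in 2-HD, named after their values were seen, were arnt, a dimerisation partner of the receptor, by 0.46 on the log2 scale, and the quinone reductase nqo1, by 0.62. The smallest adjusted p-values in 2-HD belonged to arnt2, another partner, which fell by 0.54 on the log2 scale, ahr1b, another receptor, which fell by 0.88, and arntl1a, a clock relative of the partner, which fell by 1.04.

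The CYP2 family was the widest, with 42 members, 37 of them tested. In KO 9 of the 37 rose and 0 fell (edgeR; 21 higher and 1 lower at an unadjusted p under 0.05, 15 and 1 by DESeq2), and in 2-HD 15 rose and 1 fell. The median log2 fold changes were 0.50 in KO and 0.41 in 2-HD. In the gene order of the GRCz12tu RefSeq annotation, used here only to see which genes neighbour each other, most of these members fall into runs of near neighbours. Copies within such a run can be alike enough to share reads. How reads matching several copies were counted is not given in the sources used here, so the split of counts between neighbours is uncertain.

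The run of cyp2aa genes, a fish subfamily, together with cyp2ae1 holds 11 tested members. In KO 4 of these rose, with a median log2 fold change of 0.80 over the 11, and in 2-HD 3 rose, with a median of 0.32. The member cyp2aa1 had 25.04, 22.4 and 31.7 CPM in KO larvae, 29.7, 21.3, 24.2, 19.3 and 21.2 CPM in 2-HD larvae, and 17.5, 15.1, 17.97, 10.3 and 15.01 CPM in WT larvae. All KO and all 2-HD libraries lay above WT, and it rose in both (log2 fold change 0.80, SE 0.17, adjusted p = 0.0227 in KO, and log2 fold change 0.61, SE 0.15, adjusted p = 0.00517 in 2-HD). Its call in KO was lost without KO 3 or KO 7, and reached an adjusted p of 0.157 there. Next to it in that order, cyp2aa9 had 7.43, 6.10 and 10.1 CPM in KO larvae, 3.66, 4.83, 7.72, 4.57 and 3.76 CPM in 2-HD larvae, and 5.75, 2.61, 3.35, 2.06 and 2.48 CPM in WT larvae. KO did not overlap WT while 2-HD did, because WT 3 lay above 4 of the 5 2-HD libraries. It rose in KO (log2 fold change 1.27, SE 0.30, adjusted p = 0.0308), a call lost without KO 3, KO 7, WT 10, WT 13 or WT 14, and was not called in 2-HD (log2 fold change 0.59, adjusted p = 0.0993). For cyp2aa8 the levels were 20.9, 20.9 and 42.1 CPM in KO larvae, 20.4, 13.6, 21.5, 14.2 and 11.7 CPM in 2-HD larvae, and 16.01, 14.1, 13.2, 7.52 and 14.4 CPM in WT larvae. It rose in KO (log2 fold change 1.1, SE 0.27, adjusted p = 0.0322), where KO 7 lay far above KO 2 and KO 3, and these in turn lay above each WT library. Without KO 7 its log2 fold change was 0.68 and was not called, and the call was also lost without KO 3, WT 10 or WT 13.

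The difference between KO and 2-HD was not called for these genes: the direct test gave adjusted p = 0.0858 for cyp2aa8 and 0.167 for cyp2aa9. The member cyp2aa6 had 22.9, 21.4 and 20.4 CPM in KO larvae, 17.1, 19.4, 24.5, 24.9 and 22.2 CPM in 2-HD larvae, and 17.1, 15.8, 13.8, 11.4 and 10.3 CPM in WT larvae. It rose by the same amount in both (log2 fold change 0.66, SE 0.16, adjusted p = 0.0305 in KO, and log2 fold change 0.66, SE 0.14, adjusted p = 0.00169 in 2-HD), with 2-HD 1 level with the highest WT library, and its call in KO was lost without any of KO 2, KO 3, KO 7, WT 10 and WT 13. By contrast cyp2aa12, at the edge of the run, had 17, 23.8 and 27.1 CPM in KO larvae, 22.1, 27.7, 36.5, 25.9 and 27.5 CPM in 2-HD larvae, and 19.7, 17.2, 14.7, 11.5 and 13.3 CPM in WT larvae. In 2-HD it rose (log2 fold change 0.87, SE 0.16, adjusted p = 0.000823), while in KO, where KO 2 lay below the highest WT library, it was not called (adjusted p = 0.0821). Of the remaining members of the run, cyp2aa2, cyp2aa3, cyp2aa4, cyp2aa7, cyp2aa11 and cyp2ae1, none was called in KO or 2-HD, with log2 fold changes of -0.092 to 1.35 in KO and -0.027 to 0.53 in 2-HD.

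A further run of 11 holds cyp2n13, cyp2ad2, cyp2ad3, cyp2ad6, cyp2v1, cyp2p6 to cyp2p10 and cyp2j20. The CYP2N and CYP2P enzymes oxidise arachidonic acid in killifish. In KO 3 of the 11 rose (median log2 fold change 0.50), and in 2-HD 5 rose (median 0.43). The smallest adjusted p of any member in KO was that of cyp2v1, which had 21.3, 21.1 and 24.6 CPM in KO larvae, 22.2, 18.6, 18.3, 23.1 and 19.4 CPM in 2-HD larvae, and 14.99, 14.8, 12.6, 9.92 and 11.3 CPM in WT larvae. All KO and 2-HD libraries lay above WT, and it rose in both (log2 fold change 0.81, SE 0.13, adjusted p = 0.0108 in KO, and log2 fold change 0.68, SE 0.12, adjusted p = 0.000418 in 2-HD). It was also called in KO when the fit held KO and WT alone, with cyp46a1.3 as the only other member called there, and was lost without KO 3 or KO 7 (adjusted p up to 0.0954). The member cyp2ad6 had 30.8, 34.6 and 38.4 CPM in KO larvae, 36.9, 33.4, 34.4, 31.5 and 31.7 CPM in 2-HD larvae, and 30.6, 26.6, 21.9, 21.3 and 23.9 CPM in WT larvae. It rose in both by about the same amount (log2 fold change 0.48, SE 0.11, adjusted p = 0.0307 in KO, and log2 fold change 0.43, SE 0.10, adjusted p = 0.00306 in 2-HD), and its lowest libraries in KO and 2-HD lay just above WT 3. Its call in KO was lost without KO 3, KO 7, WT 10, WT 13 or WT 14.

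Its neighbour cyp2ad2 had 39.8, 59.8 and 57.4 CPM in KO larvae, 49.7, 85.6, 62.4, 80.2 and 76.6 CPM in 2-HD larvae, and 43.8, 31.98, 30.5, 17.7 and 26.03 CPM in WT larvae. Only KO 2 fell within the WT range, and 2-HD lay wholly above it. The rise was called in 2-HD (log2 fold change 1.24, SE 0.21, adjusted p = 0.000336) and not in KO (log2 fold change 0.80, adjusted p = 0.0544). For cyp2p8 the levels were 33.1, 39.7 and 44.2 CPM in KO larvae, 45.5, 49.1, 43.2, 48.1 and 44.9 CPM in 2-HD larvae, and 25.8, 41.1, 26.1, 19.3 and 25.3 CPM in WT larvae. WT 5 stood above the other WT libraries and within the KO range, and cyp2p8 rose in 2-HD (log2 fold change 0.75, SE 0.15, adjusted p = 0.00132) and not in KO (adjusted p = 0.0879). The levels of cyp2p9 were 4.40, 7.07 and 5.99 CPM in KO larvae, 3.46, 2.91, 3.24, 3.06 and 2.82 CPM in 2-HD larvae, and 1.88, 4.19, 2.46, 1.28 and 4.16 CPM in WT larvae. KO overlapped neither WT nor 2-HD, although its lowest library was close to WT 5 and WT 14. It rose in KO (log2 fold change 1.06, SE 0.29, adjusted p = 0.0463), the direct comparison with 2-HD was not called (adjusted p = 0.0694), and the call in KO was made only without KO 2, 2-HD 1, WT 5 or WT 14 among the 13 fits that left out 1 library. The adjacent cyp2p10 was the member whose KO libraries all lay below WT, at 2.97, 2.56 and 2.55 CPM in KO, 6.09, 3.45, 2.89, 3.31 and 4.65 CPM in 2-HD and 4.62, 3.92, 6.25, 3.29 and 8.02 CPM in WT (log2 fold change -0.95 in KO, adjusted p = 0.0684). It was chosen after its values were seen.

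**Figure D3:**
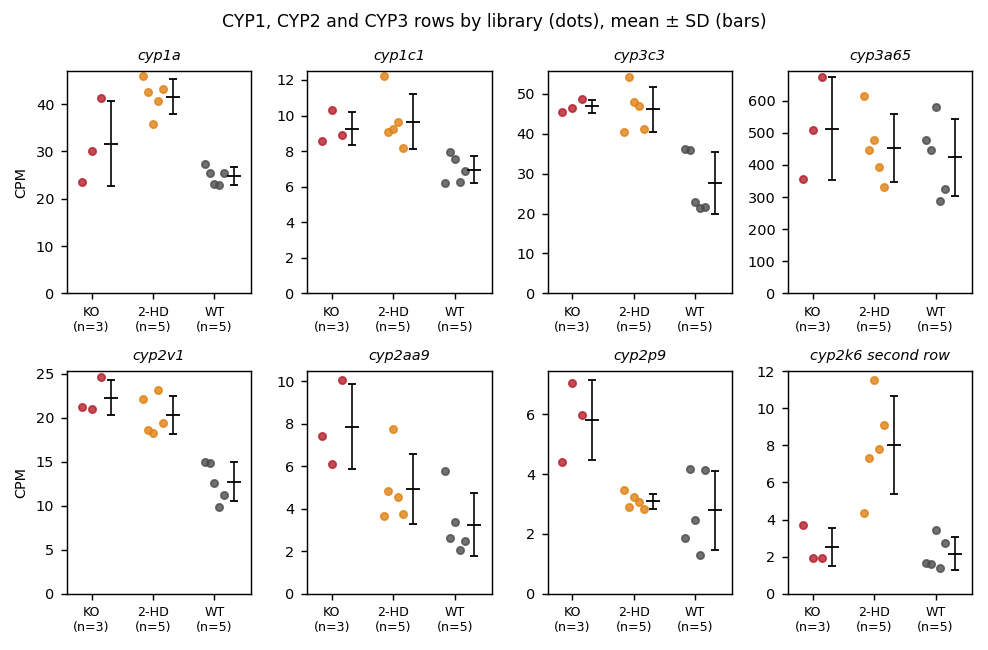
Levels in CPM of 8 members of the CYP1, CYP2 and CYP3 families in each library, KO left, 2-HD in the middle and WT right, with the mean and SD of each group. Each axis has its own scale. KO and 2-HD lie wholly above WT for cyp1c1, cyp3c3 and cyp2v1, cyp2aa9 and cyp2p9 have their highest mean in KO, and the second row of cyp2k6 has its highest mean in 2-HD.

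The cyp2k run holds 8 tested members, of which 2 rose in KO (median log2 fold change 0.31) and 4 rose and 1 fell in 2-HD (median 0.37). CYP2K enzymes were first described in trout, where they act on fatty acids and on aflatoxin. The member cyp2k16 had 28.9, 31.3 and 34.8 CPM in KO larvae, 30.2, 28.2, 29.1, 30.7 and 24.1 CPM in 2-HD larvae, and 24.01, 23.2, 20.5, 18.3 and 22.4 CPM in WT larvae. It rose in both (log2 fold change 0.55, SE 0.10, adjusted p = 0.0152 in KO, and log2 fold change 0.39, SE 0.091, adjusted p = 0.00318 in 2-HD), and the call in KO was lost without KO 3 or KO 7 (adjusted p up to 0.118). Likewise cyp2k19 had 42.6, 45.8 and 51.7 CPM in KO larvae, 44, 46.8, 52.5, 43.9 and 50.5 CPM in 2-HD larvae, and 34.5, 38.4, 36.5, 24.2 and 33.9 CPM in WT larvae. All KO and 2-HD libraries lay above WT, and it rose in both (log2 fold change 0.48, SE 0.12, adjusted p = 0.039 in KO, and log2 fold change 0.50, SE 0.11, adjusted p = 0.00199 in 2-HD), its call in KO being lost without KO 3, KO 7, 2-HD 2, 2-HD 4, WT 10, WT 13 or WT 14.

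The second row of cyp2k6 had 3.69, 1.95 and 1.93 CPM in KO larvae, 4.33, 7.34, 11.5, 7.83 and 9.11 CPM in 2-HD larvae, and 1.67, 1.58, 3.46, 1.39 and 2.71 CPM in WT larvae. Every 2-HD library lay above every library of the other groups, and KO overlapped WT. It rose in 2-HD (log2 fold change 1.89, SE 0.29, adjusted p = 0.000221), the largest log2 rise of any member there, and was not called in KO (log2 fold change 0.22, adjusted p = 0.746). The first row of the symbol had 3 to 12 counts a library and was not tested, so the symbol's 2-HD value belongs to 1 row. The one CYP2 member that fell in 2-HD was cyp2k18 (log2 fold change -0.58, adjusted p = 0.0231), with 5.62 to 8.72 CPM in 2-HD and 6.02 to 12.3 CPM in WT. WT 3 and WT 13 lay within the 2-HD range, and the call was lost without 2-HD 2, 2-HD 5, WT 5 or WT 10.

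Of the remaining CYP2 members, cyp2y3 was among the most counted, with 80.3, 94.8 and 128 CPM in KO larvae, 121, 119.5, 109.7, 117 and 97.8 CPM in 2-HD larvae, and 75.7, 93.7, 70.7, 62.2 and 62.7 CPM in WT larvae. In 2-HD, whose libraries lay wholly above WT, it rose (log2 fold change 0.63, SE 0.13, adjusted p = 0.00147), and was not called in KO (adjusted p = 0.0705). Its second row had a log2 fold change of 0.63 in 2-HD and was not called (adjusted p = 0.113). Also higher in 2-HD were cyp2n13 (log2 fold change 0.61), cyp2x7 (0.99), cyp2x9 (0.70) and cyp2k8 (0.41), the last of these lost without 2-HD 2, 2-HD 3, 2-HD 5, WT 3, WT 10 or WT 13. The row cyp2x10.2 had 0 counts in WT 14 and 0 to 2.74 CPM over the WT libraries, against 3.07 to 3.39 CPM in KO and 1.59 to 5.17 CPM in 2-HD, and was called in neither. It was chosen after its values were seen. The broadly expressed cyp2u1, a fatty acid hydroxylase in mammals, had log2 fold changes of 0.27 in KO and -0.064 in 2-HD and was not called.

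In the CYP3 family, which in mammals oxidises many drugs and steroids, 1 of 5 members rose in KO (edgeR; 4 higher at an unadjusted p under 0.05 and 2 by DESeq2) and 3 rose in 2-HD. The most counted member of all, cyp3a65, the CYP3A gene of zebrafish liver and intestine, had 355, 509 and 675 CPM in KO larvae, 614, 448, 478, 394 and 331 CPM in 2-HD larvae, and 478, 446, 582, 288 and 325 CPM in WT larvae. The 3 groups overlapped, and it was called in neither KO (log2 fold change 0.28, SE 0.24, adjusted p = 0.514) nor 2-HD (log2 fold change 0.10, SE 0.21, adjusted p = 0.742). The 95% intervals of its log2 fold change were -0.24 to 0.79 in KO and -0.35 to 0.55 in 2-HD, so a 2-fold change lies outside both. The other CYP3 symbols, cyp3c1, cyp3c3 and cyp3c4, are neighbours in the gene order. The member cyp3c3 had 45.4, 46.5 and 48.6 CPM in KO larvae, 40.4, 54.1, 48.03, 46.8 and 41.2 CPM in 2-HD larvae, and 36.3, 35.9, 22.8, 21.4 and 21.6 CPM in WT larvae. KO and 2-HD lay wholly above WT, and cyp3c3 rose in both (log2 fold change 0.76, SE 0.17, adjusted p = 0.0264 in KO, and log2 fold change 0.74, SE 0.15, adjusted p = 0.00144 in 2-HD). Without KO 3, KO 7, WT 10 or WT 13 its call in KO was lost (adjusted p up to 0.138). In 2-HD cyp3c1 rose by 0.30 on the log2 scale and cyp3c4 by 0.64, the last of these lost without 2-HD 1, 2-HD 2, WT 3, WT 10 or WT 13. In KO their log2 fold changes were 0.24 (adjusted p = 0.0952) and 0.81 (adjusted p = 0.0576). The second row of cyp3c3, chosen after its values were seen, had 1.84, 1.79 and 1.41 CPM in KO larvae, 1.86, 0.443, 0.0498, 0.301 and 0.545 CPM in 2-HD larvae, and 0.0537, 0.870, 0.391, 0 and 1.27 CPM in WT larvae. Several of these levels lie at or near that limit for rows at 0, and the row was not called in KO (adjusted p = 0.201) or 2-HD.

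The cyp3c and cyp2k runs lie on the same chromosome as aldh3b1 itself in the GRCz12tu gene order, as do 12 of the 74 member symbols matched there. The cyp3c genes are 145 to 148 protein-coding genes away from aldh3b1 and the cyp2k run 537 to 544 genes away. In KO, 1 of 4 tested rows of the cyp3c run and 2 of 8 of the cyp2k run rose, beside 4 of 11 in the cyp2aa run and 3 of 11 in the run with cyp2v1, which are on other chromosomes. The part of linkage to the edited gene in the KO values was not tested.

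The CYP4 family, which hydroxylates fatty acids at the end of the chain, did not yield a call. In both KO and 2-HD 0 of 4 members passed (edgeR; 1 at an unadjusted p under 0.05 in KO and 2 in 2-HD, with 1 and 0 called by DESeq2). The member with the highest log2 fold change in both was cyp4v8 (0.61 in KO, adjusted p = 0.0749, and 0.40 in 2-HD, adjusted p = 0.0801). In 2-HD the change of cyp4f3, at -0.45, was larger in size (adjusted p = 0.222). The human relative of both cyp4v8 and cyp4v7, CYP4V2, is the gene mutated in Bietti crystalline dystrophy, a retinal disease. The level of cyp4v8 ranged over 31.4 to 63.9 CPM in KO, 36.5 to 44.4 CPM in 2-HD and 23.9 to 40.3 CPM in WT, and KO overlapped WT. The others, cyp4f3, cyp4t8 and cyp4v7, had log2 fold changes of -0.39 to 0.19 in KO and -0.45 to 0.30 in 2-HD.

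The genes of bile acid and sterol oxidation rose in part in 2-HD: 7 of 12 tested members rose and 1 fell. In KO 2 of 12 rose and 0 fell (edgeR; 5 higher at an unadjusted p under 0.05 and 3 by DESeq2). The entry enzyme of bile acid synthesis, cyp7a1, had 57.1, 77.7 and 87.3 CPM in KO larvae, 69.9, 76.9, 101, 65.4 and 89.5 CPM in 2-HD larvae, and 47.1, 49.7, 63.3, 48.7 and 56.5 CPM in WT larvae. All 2-HD libraries lay above WT, and only KO 2 fell within the WT range. Against WT, cyp7a1 rose in 2-HD (log2 fold change 0.60, SE 0.14, adjusted p = 0.00267) and was not called in KO (log2 fold change 0.48, adjusted p = 0.074), although it was called by DESeq2 (adjusted p = 0.0404) and in the edgeR fit without KO 2 (adjusted p = 0.0258, over a range of 0.0258 to 0.335 in the fits that left out 1 library). The gene cyp8b1, which in mammals sets the balance between bile acid species, had 30.9, 37.8 and 35.3 CPM in KO larvae, 41.8, 62.2, 57.4, 55.03 and 64.3 CPM in 2-HD larvae, and 24.3, 37.96, 27.8, 14.2 and 21.8 CPM in WT larvae. In 2-HD cyp8b1 rose (log2 fold change 1.16, SE 0.19, adjusted p = 0.000366), where each library lay above all KO and WT libraries, and was not called in KO (log2 fold change 0.46, adjusted p = 0.215). Its neighbour cyp8b3 rose in 2-HD by 1.34 on the log2 scale (adjusted p = 0.00226) at a mean level of 1.36 ± 0.197 CPM in 2-HD and 0.532 ± 0.234 CPM in WT (SD, n = 5 each).

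The oxysterol hydroxylase cyp7b1 had 6.61, 7.33 and 11.7 CPM in KO larvae, 8.30, 10.5, 9.17, 10.8 and 7.87 CPM in 2-HD larvae, and 6.93, 3.97, 4.69, 4.01 and 3.87 CPM in WT larvae. It rose in KO (log2 fold change 0.86, SE 0.21, adjusted p = 0.0347) and in 2-HD (log2 fold change 0.99, SE 0.19, adjusted p = 0.000887), and WT 3 was the WT library that reached into the KO range. The call in KO was lost without KO 3, KO 7, WT 5, WT 10, WT 13 or WT 14. A CYP27A enzyme oxidises the sterol side chain in mammals, and zebrafish carry several such genes. One of them, cyp27a7, had 22.6, 22.2 and 26.3 CPM in KO larvae, 31.8, 28.2, 31.1, 32.7 and 29.2 CPM in 2-HD larvae, and 20.9, 17.3, 20.04, 11.8 and 21.6 CPM in WT larvae. The groups lay in separate ranges, with 2-HD highest, KO between and WT lowest, and cyp27a7 rose in 2-HD (log2 fold change 0.74, SE 0.13, adjusted p = 0.000492) while KO was not called (log2 fold change 0.37, adjusted p = 0.139). Its relative cyp27a1.4 went the other way in 2-HD, with 4.71, 4.66 and 6.20 CPM in KO larvae, 3.92, 4.14, 3.89, 3.72 and 4.21 CPM in 2-HD larvae, and 5.43, 5.22, 5.81, 4.68 and 5.25 CPM in WT larvae. All 2-HD libraries lay below all KO and WT libraries, and it fell in 2-HD (log2 fold change -0.41, SE 0.11, adjusted p = 0.00864). In KO its log2 fold change was -0.024, with a 95% interval of -0.29 to 0.25.

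The cyp46a1 genes lie side by side, and their mammalian counterpart is the neuronal enzyme that hydroxylates cholesterol for export from the brain. Among them cyp46a1.3 had 5.84, 8.45 and 8.71 CPM in KO larvae, 6.29, 9.41, 9.27, 11.5 and 5.94 CPM in 2-HD larvae, and 3.49, 4.89, 2.85, 2.67 and 3.35 CPM in WT larvae. Both KO and 2-HD lay wholly above WT, and it rose by over 2-fold in both (log2 fold change 1.15, SE 0.24, adjusted p = 0.0196 in KO, and log2 fold change 1.29, SE 0.21, adjusted p = 0.000288 in 2-HD). Its call in KO was lost without KO 3, KO 7 or WT 10 (adjusted p up to 0.13). The other copies were not called in KO, with log2 fold changes of 0.38 for cyp46a1.1, 0.93 for cyp46a1.2 and 0.18 for cyp46a1.4. In 2-HD cyp46a1.4 rose by 0.42 on the log2 scale, a call lost without 2-HD 5 or WT 13. The oxysterol hydroxylase cyp39a1 had log2 fold changes of -0.32 in KO and -0.57 in 2-HD and was not called.

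Among 21 other tested genes of bile acid synthesis, conjugation and transport, 3 rose in KO and 12 rose in 2-HD. The canalicular bile salt exporter abcb11a rose in KO (log2 fold change 0.61, SE 0.17, adjusted p = 0.0474) and in 2-HD (log2 fold change 1.3, SE 0.15, adjusted p = 4.88e-05). Its copy abcb11b rose in 2-HD (log2 fold change 1.22, SE 0.19, adjusted p = 0.000255). The gene abcb4, which shares its name with a phospholipid exporter of mammals, rose in both, by 0.65 in KO and 1.02 in 2-HD on the log2 scale. Against 2-HD, KO was lower in abcb11a (log2 fold change -0.69, SE 0.17, adjusted p = 0.0298) and abcb11b (log2 fold change -0.84, SE 0.23, adjusted p = 0.0409). Hepatocyte markers as a list were higher in 2-HD too: 10 of 12 rose there, as given above, with a median log2 fold change of 0.65, beside a median of 0.51 over the 12 bile acid and sterol members.

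**Figure D4:**
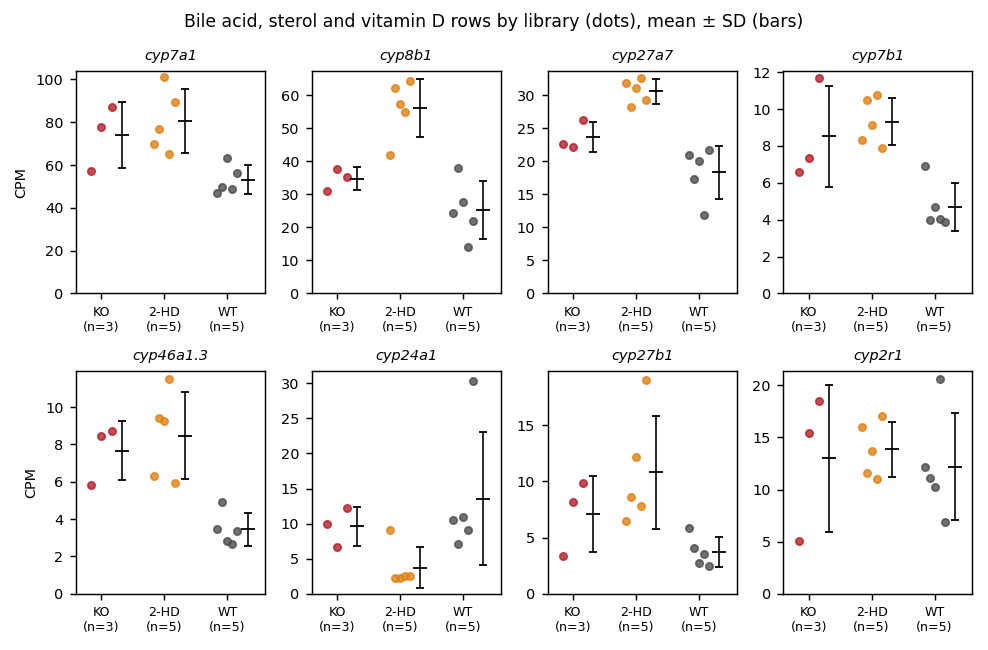
Levels in CPM of 8 members of the bile acid, sterol and vitamin D groups in each library, KO left, 2-HD in the middle and WT right, with the mean and SD of each group. Each axis has its own scale. All 2-HD libraries lie above WT for cyp7a1, cyp8b1, cyp27a7, cyp7b1, cyp46a1.3 and cyp27b1, while for cyp24a1 4 of 5 2-HD libraries lie below every other library and WT 14 lies far above.

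Of 4 vitamin D members, 1 rose and 1 fell in 2-HD, where 22.7% of all rows rose and 19.7% fell. In KO 0 were called by edgeR, with 1 at an unadjusted p under 0.05 and 0 by DESeq2. The enzyme cyp24a1 breaks down the active hormone and is a sensitive target of its receptor. It had 9.88, 6.71 and 12.2 CPM in KO larvae, 9.08, 2.22, 2.29, 2.56 and 2.53 CPM in 2-HD larvae, and 10.5, 7.07, 10.9, 9.08 and 30.3 CPM in WT larvae. The 2-HD libraries other than 2-HD 1 lay between 2.22 and 2.56 CPM, below every library of KO and WT, while 2-HD 1 lay within the WT range and WT 14 well above the other WT libraries. It fell in 2-HD (log2 fold change -1.86, SE 0.45, adjusted p = 0.00441), the largest fall of any member, and was not called in KO (log2 fold change -0.50, adjusted p = 0.572). The call in 2-HD was made in each fit that left out 1 library, with log2 fold changes of -2.49 to -1.33, and without both 2-HD 1 and WT 14 the log2 fold change was -1.99 (adjusted p = 2.25e-05). The enzyme that makes the active hormone, cyp27b1, chosen after its values were seen, had 3.33, 8.20 and 9.85 CPM in KO larvae, 6.45, 8.57, 12.2, 7.83 and 19.01 CPM in 2-HD larvae, and 5.86, 4.08, 2.74, 3.51 and 2.42 CPM in WT larvae. All 2-HD libraries lay above WT and KO spread across both ranges. Its rise was called in 2-HD (log2 fold change 1.53, SE 0.34, adjusted p = 0.00245) and cyp27b1 was not called in KO (log2 fold change 0.93, adjusted p = 0.155).

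The first hydroxylation of vitamin D in mammalian liver is the work of CYP2R1. Its zebrafish gene cyp2r1 had 5.02, 15.5 and 18.5 CPM in KO larvae, 15.99, 11.6, 13.7, 11 and 17.1 CPM in 2-HD larvae, and 12.2, 11.1, 10.3, 20.6 and 6.87 CPM in WT larvae. The groups overlapped, with KO 2 lowest and WT 13 highest of all, and cyp2r1 was called in neither KO (log2 fold change 0.089, SE 0.35, adjusted p = 0.907) nor 2-HD (log2 fold change 0.18, SE 0.31, adjusted p = 0.662). Grouped here by its number, cyp27c1 converts vitamin A to the form that shifts vision toward the red in zebrafish, and it had log2 fold changes of -0.15 in KO and 0.10 in 2-HD, not called. Of 9 other vitamin D genes, 0 were called in KO by edgeR (3 higher at an unadjusted p under 0.05, 2 by DESeq2). In 2-HD 3 of the 9 rose and 2 fell, where 22.7% of all rows rose and 19.7% fell. The epithelial calcium channel trpv6 rose in 2-HD (log2 fold change 1.93, SE 0.27, adjusted p = 0.000114), the calcium-binding protein gene calb1 fell (log2 fold change -0.89, SE 0.12, adjusted p = 9.83e-05), and dhcr7, whose enzyme competes for the precursor of vitamin D, rose (log2 fold change 0.77, SE 0.13, adjusted p = 0.0003). Of 7 pronephros markers 1 rose and 0 fell in KO, where 4.1% and 1.86% of all rows did. In 2-HD 4 of them rose and 1 fell, beside the shares of all rows just given. Their sums were 435.3 to 455.2 CPM in KO, 457 to 593.4 CPM in 2-HD and 371.9 to 434.3 CPM in WT. The lowest KO sum lay just above the highest WT sum. The part of these shifts in the vitamin D values was not tested. Against 2-HD, KO was higher in calb1 (log2 fold change 0.64, adjusted p = 0.0196) and lower in dhcr7 (log2 fold change -0.51, adjusted p = 0.0487).

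The steroid members were low and none was called: 0 of 4 tested in KO and in 2-HD (edgeR; 1 in KO and 0 in 2-HD at an unadjusted p under 0.05, and 1 and 0 by DESeq2). The row nearest to a call was cyp17a1, needed for androgens and, in many vertebrates, for cortisol, with 6.09 to 8.15 CPM in KO, 2.42 to 8.18 CPM in 2-HD and 2.02 to 4.68 CPM in WT. KO lay wholly above WT (log2 fold change 0.96, adjusted p = 0.0704), and DESeq2 called it. Brain aromatase, cyp19a1b, is an estrogen target in the radial glia of fish. It had 1.38, 1.28 and 1.62 CPM in KO larvae, 1.03, 1.33, 1.89, 2.46 and 2.72 CPM in 2-HD larvae, and 1.56, 1.79, 1.34, 1.95 and 0.923 CPM in WT larvae. The 3 groups overlapped, and it was called in neither KO (log2 fold change -0.087, SE 0.32, adjusted p = 0.899) nor 2-HD (log2 fold change 0.32, SE 0.27, adjusted p = 0.364). Over the same libraries 6 of 7 radial glia markers fell in 2-HD, where 19.7% of all rows fell. In KO 0 were called by edgeR, while 4 were lower at an unadjusted p under 0.05 and 2 by DESeq2. Summed levels were 1244 to 1483 CPM in KO, 1068 to 1216 CPM in 2-HD and 1629 to 1876 CPM in WT, with KO and 2-HD wholly below WT. The ovarian aromatase cyp19a1a had 1 to 11 counts a library and was not tested. Among 19 other hormone genes, 0 rose in KO (edgeR; 1 at an unadjusted p under 0.05, 0 by DESeq2) and 1 fell, the estrogen receptor esr1, which is also counted among the receptors below (log2 fold change -1.15, SE 0.29, adjusted p = 0.0348). In 2-HD 6 rose and 3 fell, where 22.7% of all rows rose and 19.7% fell. Among those called were the sulfotransferase sult2st1 (0.63 on the log2 scale), the cholesterol carrier star (0.63) and the glucocorticoid receptor nr3c1 (-0.24).

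The remaining member, cyp20a1, has no well established substrate. It rose in 2-HD by 0.32 on the log2 scale (adjusted p = 0.0269), with 21.1 to 28.7 CPM in 2-HD and 18.2 to 23.98 CPM in WT. The ranges overlapped, and the call was lost without 2-HD 3, 2-HD 4, 2-HD 5, WT 3, WT 10 or WT 14. In KO its log2 fold change was -0.058.

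Among 16 genes that feed electrons and haem to these enzymes, 11 rose in 2-HD, 0 fell and 5 were not called, where 22.7% of all rows rose and 19.7% fell. In KO 0 of the 16 were called by edgeR (5 higher at an unadjusted p under 0.05, 4 by DESeq2). The P450 reductase gene porb, which supplies the microsomal enzymes, averaged 158 ± 7 CPM in KO, 256 ± 48.5 CPM in 2-HD and 116 ± 16.3 CPM in WT (SD, n = 3, 5 and 5). It rose in 2-HD (log2 fold change 1.15, SE 0.12, adjusted p = 4.04e-05), and KO was lower than 2-HD (log2 fold change -0.70, SE 0.15, adjusted p = 0.018). Adrenodoxin reductase, fdxr, which supplies the mitochondrial enzymes such as those of the CYP27 and CYP24 families, averaged 9.72 ± 0.0788 CPM in KO, 15.6 ± 3.82 CPM in 2-HD and 6.88 ± 0.527 CPM in WT. It also rose in 2-HD (log2 fold change 1.18, SE 0.15, adjusted p = 6.88e-05) and was lower in KO than in 2-HD (log2 fold change -0.68, SE 0.17, adjusted p = 0.0314). The cytochrome b5 gene cyb5b, whose protein assists several P450 enzymes, rose in 2-HD by 0.91 on the log2 scale.

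Of 31 nuclear receptors and liver factors known to regulate P450 genes, 2 rose and 1 fell in KO, and 12 rose and 2 fell in 2-HD. Of all rows, 42.4% were called in 2-HD, 22.7% higher and 19.7% lower. The called share of these 31 in 2-HD is near that of the whole table, while the balance of directions is not. The adipocyte regulator pparg rose in KO (log2 fold change 0.94, SE 0.23, adjusted p = 0.0321). The pregnane X receptor nr1i2, the sensor of foreign compounds that drives CYP3A genes in mammals, rose in 2-HD (log2 fold change 1.01, SE 0.15, adjusted p = 0.000144), and so did the retinoid X receptor rxrab (log2 fold change 1.32, SE 0.26, adjusted p = 0.00114). Of the CYP3 rows, cyp3a65 was not called in 2-HD and cyp3c1, cyp3c3 and cyp3c4 rose. A link between these genes and the receptors was not tested. Among 19 other genes of eicosanoid metabolism, 3 rose in KO, and 11 rose and 1 fell in 2-HD. The soluble epoxide hydrolase ephx2, which hydrolyses the epoxides that P450 enzymes make from arachidonic acid, rose in KO (log2 fold change 0.81, SE 0.17, adjusted p = 0.0196), with a log2 fold change of 0.81 in 2-HD. The phospholipase pla2g4aa, which releases arachidonic acid, rose in both, by 0.91 in KO and 1.12 in 2-HD on the log2 scale, and ptges, a prostaglandin E synthase, rose in KO by 0.55. In 2-HD the hydrolase ephx1 rose by 0.50 and ephx4 fell by 0.98. Over all 124 tested genes of these partner lists, 9 rose and 1 fell in KO, where 4.1% and 1.86% of all rows did, and 58 rose and 12 fell in 2-HD, where 22.7% and 19.7% did. As for the members, 0 of these calls in KO were made without KO 3 or without KO 7, while 2 genes rose without WT 10 and 3 without WT 13.

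Set directly against 2-HD, KO differed in 1 of 72 members, where 6.98% of all rows were called, 3.93% higher and 3.06% lower. At an unadjusted p under 0.05, 9 members were higher and 7 lower. Many rows pass that limit: cyp4v7, at 0.04 in edgeR's test, ranked 5155 of 22158 rows. DESeq2 called 4 members higher and 3 lower, where it called 6.25% of all rows higher and 5.25% lower. The member called was the second row of cyp2k6, whose levels are given above and which was lower in KO (log2 fold change -1.67, SE 0.35, adjusted p = 0.0177). It did not pass without KO 3 (adjusted p = 0.0790) or without KO 7 (adjusted p = 0.0668), in a range of 0.00294 to 0.0790 over the 13 fits. In 8 members every KO library lay above every 2-HD library, 11.1% against 8.97% of all rows, and in 5 every one lay below, 6.94% against 8.82%. Both shares are near those of the whole table. Without KO 3, 0 members were called, when 0.362% of all rows were. Without 2-HD 1, 4 members were higher in KO and 3 lower, when 8.24% of all rows were higher and 6.4% lower. Without WT 13, 1 and 4 were, when 3.33% and 2.64% of all rows were. Without both libraries that stood apart, 2-HD 1 and WT 14, 8 members were higher in KO and 4 lower, when 15.9% of all rows were called. Those higher were cyp24a1 (log2 fold change 2.01), cyp2aa3, cyp2aa8, cyp2aa11, cyp2k18, cyp2p9, cyp4v7 and the second row of cyp3c3, and those lower were cyp8b1, cyp20a1, cyp2j20 and the second row of cyp2k6.

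The 7 members that were not tested had 0 to 19 counts in any library. They were cyp8b2, cyp2k22, cyp2x6, cyp2x12, cyp19a1a, the first row of cyp2k6 and the second row of cyp2x10.2.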

How the data were processed

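RNA of zebrafish larvae was sequenced in 13 libraries. The values are raw whole-number counts per gene as deposited by the authors, with no scaling. TRIzol extraction and a BGISEQ library protocol are named in the labels. The submitters' processing notes name GRCz11 as the build, and featureCounts 2.0.1, HISAT2 2.2.1 and Trim Galore 0.6.7 as software. The annotation, strand setting and handling of multiply mapped reads are not given in the sources used here, so counts of close copies, overlapping genes and antisense partners are uncertain. No per-library column was left unused and each row carried a name.

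Counts were tested with edgeR 4.0.16 in R 4.3.3: rows were kept by filterByExpr (minimum count 10), scaled with TMM factors and fitted with 3 group means over all 13 libraries (biological coefficient of variation 0.151). Adjusted p-values are Benjamini-Hochberg values of the quasi-likelihood test over all 22158 rows tested. The words rose and fell are kept for an adjusted p under 0.05. Standard errors come from the log2 fold change and its F statistic. Levels are TMM-scaled CPM. Libraries are named by the number in their description label, which for 1 WT library differs from its title. Whether the libraries within a group hold separate pools of larvae is not stated, and the p-values then reflect no more than the spread among the samples, which may be technical. Pairs of libraries within a group differed by more than sampling noise (chi-square per degree of freedom 4.73 to 24.8).

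Levels per library are given for called members, up to 12 with the smallest adjusted p in each comparison, and for 10 members named by role. From each partner list, the 3 called genes with the smallest adjusted p are named. Members, lists and markers were chosen with earlier results of these data known. Alternatives were DESeq2 1.42.0, its size factors, no filter, 2 groups at a time, a replicate block, rows of 1 symbol summed and libraries left out. On simulated counts for 22158 genes, 67, 67 and 66 genes were changed 1.5-fold, 2-fold and 4-fold in each comparison. Of these, 29.9%, 71.6% and 92.4% were recovered for KO against WT, and 46.3%, 73.1% and 95.5% for 2-HD against WT. False calls were 6.52% and 5.92% of the calls. The data held many more called rows (1322 and 9398), which makes the adjusted cutoff less strict, so these rates do not give the power of the tests here. No sequence of these genes was used here. Some genes counted in the lists of pathway genes are not reported by name here.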

Additional observations from a re-analysis of the deposited data

Results flagged for a closer look

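Among 62 groups of 5 libraries, for 31 members, 5 held a library far from the other 4 by Dixon's criterion. Chance gives about 1 in 20 for groups picked without regard to their values. Many of these members were picked by their calls or after their values were seen, so that rate does not apply to them directly. In cyp24a1, which breaks down active vitamin D, 2-HD 1 had 9.08 CPM where the other 2-HD libraries had 2.22 to 2.56 CPM, and WT 14 had 30.3 CPM where the other WT libraries had 7.07 to 10.9 CPM. The second row of cyp3c3 had 1.86 CPM in 2-HD 1 and 0.0498 to 0.545 CPM in the other 2-HD libraries. These are the same libraries that stood apart on the second principal component. In cyp2aa9, 2-HD 3 had 7.72 CPM and the other 2-HD libraries 3.66 to 4.83 CPM. In cyp7b1, WT 3 had 6.93 CPM and the other WT libraries 3.87 to 4.69 CPM.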

How the results depend on the processing

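For KO against WT, members called higher numbered 12, against 22 with DESeq2 and 2 with the groups compared alone. Of all rows, DESeq2 called 6.52% higher and 5.09% lower, and the fit of the groups alone 0.328% and 0.143%. When 1 library was left out, members called higher numbered 0 to 19. Those fits called 0.00893% to 5.99% of all rows higher and 0.00446% to 3.38% lower. Members called lower numbered 0, against 1 with DESeq2 and 0 to 1 without 1 library. Partner genes gave 9 higher and 1 lower, against 18 and 3 with DESeq2, 0 higher with the groups alone, and 0 to 15 and 0 to 2 without 1 library. For 2-HD against WT, members gave 26 to 31 higher and 2 to 5 lower without 1 library, and partner genes 48 to 59 and 8 to 12. For KO against 2-HD, members called higher numbered 4 with DESeq2, 2 with the groups alone, 8 without 2-HD 1 and WT 14, and 0 to 4 without 1 library, and those lower 3, 4, 4 and 0 to 4. Partner genes gave 4 higher and 8 lower, against 7 and 17 with DESeq2, 7 and 16 without 2-HD 1 and WT 14, 5 lower with no filter, and 0 to 6 and 0 to 17 without 1 library. Of all rows, 3.93% were called higher and 3.06% lower in the main fit. The shares were 6.25% and 5.25% with DESeq2, and 2.83% and 2.45% with the groups alone. Without 2-HD 1 and WT 14 they were 9.25% and 6.63%, and with no filter 2.37% and 1.79%. Without 1 library they were 0.232% to 8.24% and 0.129% to 6.4%.

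The labels do not say what replicate numbers mark, so the numbers were not taken as pairs. In their deviations from group means, libraries of the same number correlated by -0.00416 to 0.264, and those of different number by -0.323 to 0.483. The highest value for the same number was that of 2-HD 3 with WT 3, the WT library whose title bears another number. With the replicate number as a block, members called were 0 higher for KO against WT and 11 higher and 1 lower for 2-HD against WT. For KO against 2-HD they were 1 higher and 0 lower. The block leaves few degrees of freedom, and calls were lost over the whole table too. Of all rows, that fit called 2 for KO against WT. It called 9.81% higher and 9.28% lower for 2-HD against WT, and 0.74% and 0.763% for KO against 2-HD. Partner genes were then 0 and 0, 29 and 7, and 1 and 3. Under the block, cyp19a1b had log2 fold change 0.048 in KO, cyp3a65 -0.19 in KO, -0.15 in 2-HD and -0.047 between KO and 2-HD, and cyp1c1 0.11 between them.

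The 46 called results of single members, picked by their calls, were each refitted under up to 20 alternatives. Of the 915 values this gave, none changed sign and 775 kept the call. In KO against WT calls were kept in 9 (cyp2p9) to 17 (cyp2v1) of 20 alternatives. In 2-HD against WT they were kept in 7 (cyp1c2) to 20 (among others cyp1a) of 20. The sign changed in 31 of 480 such values of results that were not called, and the cause was not tested. Without 2-HD 1 and WT 14, log2 fold changes turned to 0.022 for cyp24a1 and -0.069 for cyp2r1 in KO, to -0.048 for cyp2r1 and -0.14 for cyp3a65 in 2-HD, and to 0.053 for cyp1c1 between KO and 2-HD. With 1 library left out they ranged, in KO against WT, over -0.22 to 0.019 (cyp19a1b), -0.17 to 0.053 (cyp1b1), -0.71 to 0.031 (cyp24a1), -0.17 to 0.052 (cyp27a1.4) and -0.25 to 0.48 (cyp2r1). In 2-HD against WT they ranged over -0.13 to 0.0497 (cyp1b1) and -0.037 to 0.24 (cyp3a65). Between KO and 2-HD they ranged over -0.12 to 0.10 (cyp1b1), -0.14 to 0.041 (cyp1c1), -0.44 to 0.29 (cyp2r1), -0.067 to 0.39 (cyp3a65) and -0.26 to 0.034 (cyp7a1). Depth limits the 7 members that were not tested.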
